A study of Homo sapiens with 6 samples.

Results

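Receptor-mediated mitophagy was examined through 9 genes: BNIP3, BNIP3L, FUNDC1, BCL2L13 and FKBP8, which encode receptors of the mitochondrial outer membrane, PHB2, an inner membrane receptor, the kinase gene PINK1, the ubiquitin ligase gene MUL1, and FAM162A, which encodes a mitochondrial protein tied to cell death in low oxygen. The genes were chosen by name, with earlier results of these data known. Of these, 9 of 9 were found among the 22153 genes of the deposited table and among the 10237 genes tested. RNA with poly(A) tails came from EA.hy926 cells, an established human hybrid line whose parents are endothelium of the umbilical vein and the A549 line of lung carcinoma. The normoxia group holds 3 libraries from 20% oxygen, and the hypoxia group 3 libraries taken after 8 h in 1% oxygen. All were grown in high-glucose DMEM with 10% fetal bovine serum and penicillin/streptomycin under 5% CO2, and hypoxia began at 80 to 90% confluence. The series asks which genes change with this exposure. Whether the replicates were separate cultures is not stated, and the spread behind each p-value, being that of these libraries, may be technical.

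Mitophagy is the removal of mitochondria by autophagy. A receptor in the mitochondrial membrane binds ATG8 proteins (the LC3 and GABARAP families) on the growing autophagosome through a short LC3-interacting motif, whereas in the PINK1 pathway the mitochondrion is first coated with ubiquitin. In low oxygen the hypoxia-inducible factors (HIF) act on BNIP3 and BNIP3L, and FUNDC1 is known to be controlled by phosphorylation of the protein. HIF binds DNA at a short core that reads ACGTG or GCGTG.

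The sequence upstream of the start site is shown for 3 members, as examples of a window with several such cores (BNIP3 and FAM162A) and of one with none (FUNDC1). They were picked with the expression values known, so no relation between cores and expression is drawn from them. From the RefSeq table (GRCh38.p14), 9 start-site windows were used for 6 members, BNIP3, FAM162A, FUNDC1, BCL2L13, MUL1 and PHB2. None was used for BNIP3L, FKBP8 and PINK1, which does not show that the RefSeq table lacks windows for them. Each of the 3 sequences is printed 5′ to 3′ on the strand of the gene, limited to bases outside the exons of GENCODE release 29. Matches to ACGTG or GCGTG on either strand are in capitals.
BNIP3, chr10:131982014-131982173, minus strand: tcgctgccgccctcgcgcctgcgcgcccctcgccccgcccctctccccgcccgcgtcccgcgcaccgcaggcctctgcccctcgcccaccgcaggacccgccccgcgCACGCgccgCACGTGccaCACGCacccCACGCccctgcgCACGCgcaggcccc
FAM162A, chr3:122383932-122384175, plus strand: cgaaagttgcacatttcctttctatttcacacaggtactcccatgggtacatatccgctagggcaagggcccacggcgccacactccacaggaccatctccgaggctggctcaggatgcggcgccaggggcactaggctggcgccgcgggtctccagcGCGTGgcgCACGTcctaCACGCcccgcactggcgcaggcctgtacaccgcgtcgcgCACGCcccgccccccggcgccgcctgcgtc
FUNDC1, chrX:44543002-44543109, minus strand: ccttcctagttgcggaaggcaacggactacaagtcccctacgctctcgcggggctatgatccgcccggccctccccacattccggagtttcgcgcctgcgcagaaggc

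In the 250 bases before the RefSeq start, BNIP3 had 6 matches, 2 of ACGTG and 4 of GCGTG, lying 143 to 100 bases before the start. The ACGTG pair overlaps, since its letters read the same core on both strands. FAM162A had 4 matches, 1 of ACGTG and 3 of GCGTG, from 92 to 32 bases before the start. BCL2L13 had 1 match of GCGTG in 1 of its windows, and the windows of FUNDC1, MUL1 and PHB2 held none. Across 35116 promoter windows of the same length, 43.2% had at least 1 match, 18.5% had ACGTG, 32.2% had GCGTG, 3.22% had at least 4 matches and 0.646% at least 6. Both cores contain CG, and the G and C content of the window was 81.6% at BNIP3, 68.4% at FAM162A and 62.4% at FUNDC1. These matches are a description of letters, and binding was not measured.

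The libraries held 17226736 to 18652704 reads assigned to genes. Values below are reads divided by 1 size factor per library, called scaled reads, and levels compared between genes are also divided by summed exon length, called the FPKM scale. Normoxia replicate 3 stood apart. It had reads in 16741 genes, against 18214 to 18858 in the others, and its correlation with normoxia replicate 1 and hypoxia replicate 2 across genes was 0.871, the lowest among the pairs of libraries. Relative to the mean of all libraries, its log2 levels fell by 0.403 for each 10 points of gene GC content, against slopes of -0.145 to 0.332 in the other libraries. Of 14 endothelial markers, 13 were tested, and CLDN5 had 0 to 5 reads per library. Their summed level on the FPKM scale was 2134, 1825 and 1295 in normoxia, against 1315, 2690 and 1776 in hypoxia, and 10 of 13 log2 differences were positive (median 0.06). Among them KDR stood at -0.85, CD34 at 0.64 and TEK, the marker at an unadjusted limma p below 0.05, at 0.51, and 0 passed limma, edgeR or DESeq2. The epithelial keratins KRT7 and KRT8 (log2 differences of -0.15 and -0.08) were abundant, whereas EPCAM had 2 to 19 reads per library. The 6 epithelial markers in the table summed to 707, 694 and 1124 in normoxia and 962, 619 and 765 in hypoxia, so the epithelial sum was highest and the endothelial sum lowest in normoxia replicate 3. Fibroblast and mural markers summed to 9.68 to 21.6, with FAP at a log2 difference of 0.28, ACTA2 at 0.19 and COL1A1 at 0 to 7 reads, and leukocyte markers to 0.535 to 3.22, with LYZ at 0.05 and CD14 at 0 to 3 reads. PTPRC, CD3E, CDH1, ESRP1, COL3A1, PDGFRA and DCN were not among the genes analysed here. The part of these differences in the results below was not tested, except through the fits without each library and after correction for GC content.

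Among the 9 genes, BNIP3 rose strongly, BNIP3L and FAM162A stood higher in every hypoxia library than in any normoxia library, and the other 6 genes had overlapping groups. Mean fold changes, hypoxia over normoxia, were 11.2 for BNIP3, 4.16 for FAM162A and 3.55 for BNIP3L. For the other members they lay between 0.856 (FUNDC1) and 1.11 (BCL2L13). By limma, with p-values adjusted over all 10237 tested genes (Benjamini-Hochberg), 1 of the 9 passed an adjusted p of 0.05, where 0.0977% of genes tested were called in all. At an unadjusted limma p below 0.05 there were 3 of 9, BNIP3, BNIP3L and FAM162A, beside 2.69% of genes tested. Groups did not overlap for the same 3 genes, beside 7.48% of genes tested in either direction and 4.77% with hypoxia higher. The 9 log2 differences had a median of 0.14, beside 0.00 over the genes tested, and 6 of 9 were positive, beside 5179 of 10237.

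**Figure D1:**
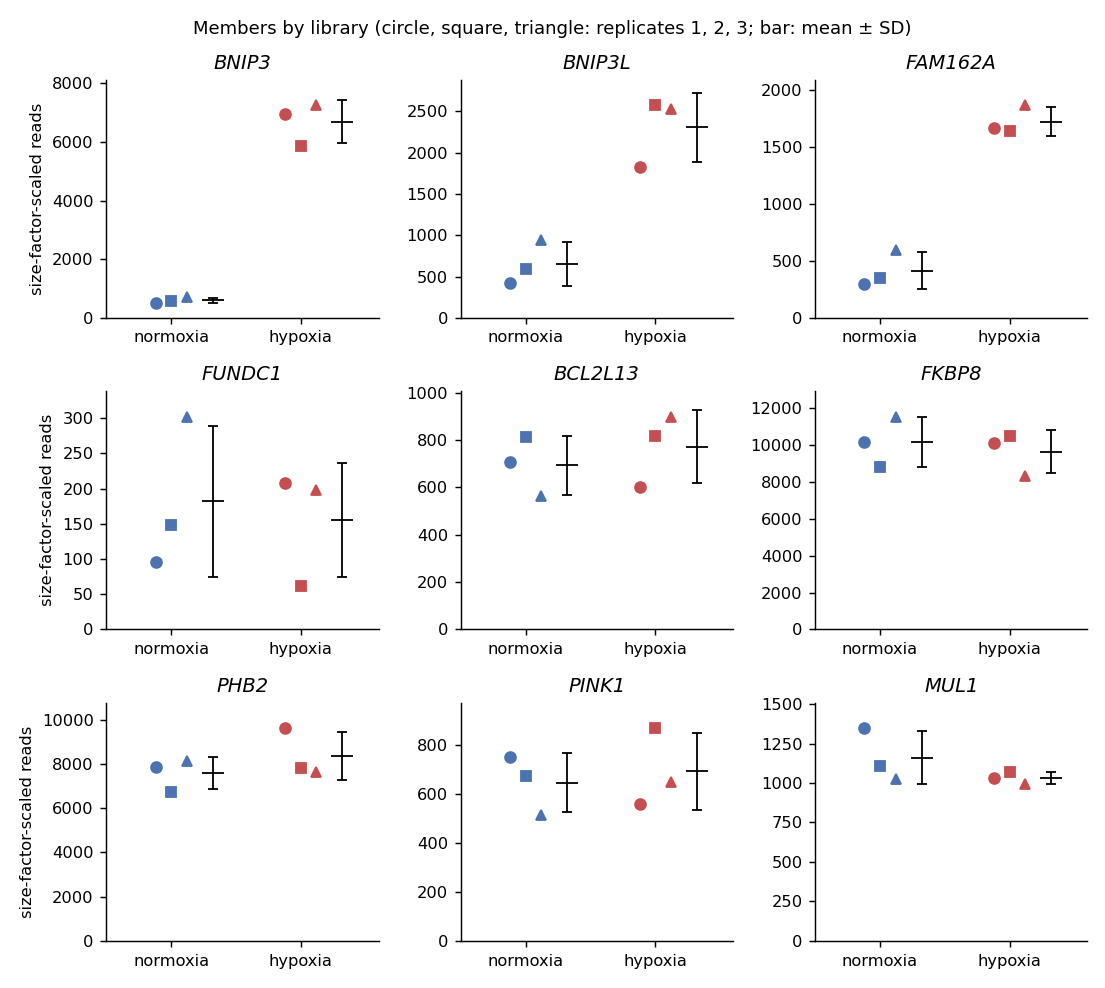
Size-factor-scaled reads (vertical axis, starting at 0) of each of the 9 genes in the 3 normoxia and 3 hypoxia libraries, with a bar for the mean ± SD of each group. BNIP3, BNIP3L and FAM162A have no overlap between the groups, whereas the points of the other 6 genes overlap.

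BNIP3 encodes a BH3-like protein of the outer membrane that acts as a mitophagy receptor and was first described as a partner of BCL2 family proteins. It lies on the minus strand of chromosome 10 (131966455 to 131982013, GRCh38). BNIP3 had 520.0, 573 and 694 scaled reads in normoxia replicates 1 to 3 and 6951, 5879 and 7254 in hypoxia replicates 1 to 3. The lowest hypoxia library was 8.47 times the highest normoxia library, and the spread within a group was small, at 596 ± 89.2 and 6695 ± 722 (SD, n = 3 each). The log2 change was 3.47 (SE 0.21, 95% interval 2.99 to 3.96, limma adjusted p = 0.00207), with the lowest p-value of all genes tested and the 4th largest log2 change. It passed in 16 of 16 alternatives, with adjusted p from 6.68e-39 (DESeq2) to 0.0422 (without hypoxia replicate 3). In a bulk library more RNA per cell and more cells with the transcript cannot be told apart. Of 44 annotated BNIP3 pseudogenes, 4 were in the table, BNIP3P11, BNIP3P1, BNIP3P4 and BNIP3P27, with 40, 33, 7 and 4 reads over the 6 libraries against 21837 for BNIP3. How the counting treated reads shared with such copies is not known.

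BNIP3L, also called NIX, encodes the closest relative of BNIP3 and is the receptor through which maturing red blood cells lose their mitochondria. It lies on the plus strand of chromosome 8 (26382898 to 26505636). BNIP3L had 422, 587 and 943 scaled reads in normoxia, against 1829, 2576 and 2529 in hypoxia. The groups did not overlap, but the lowest hypoxia library was only 1.94 times the highest normoxia library, normoxia replicate 3. Its log2 difference of 1.88 (SE 0.32, 95% interval 1.13 to 2.62) did not pass limma (adjusted p = 0.165). It ranked 38 of 10237 by log2 difference and 26 by p. It did pass by DESeq2 (adjusted p = 0.000464, where 0.489% of genes with an adjusted p were called), after the GC correction (limma adjusted p = 0.0433) and without normoxia replicate 3 (limma adjusted p = 0.0268), and it did not by edgeR (adjusted p = 0.197). Over the alternatives its limma, edgeR or DESeq2 adjusted p ran from 0.000464 to 0.948. Exons of BNIP3L share 330 bp (7.66% of their length) with PNMA2 on the opposite strand. PNMA2 had 434, 455 and 518 scaled reads in normoxia and 729, 689.6 and 619 in hypoxia, and because it is not known whether the counting used strand, reads of the shared stretch cannot be told apart.

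FAM162A, also known as HGTD-P, encodes a mitochondrial protein described as a HIF-1 responsive mediator of cell death. It lies on the plus strand of chromosome 3 (122384176 to 122412334). FAM162A had 293, 349 and 597 scaled reads in normoxia and 1662, 1633 and 1863 in hypoxia. Every hypoxia library was at least 2.73 times the highest normoxia library, again normoxia replicate 3, and the hypoxia libraries lay within 1.14-fold of each other. The log2 difference of 2.10 (SE 0.29, 95% interval 1.43 to 2.78) did not pass limma (adjusted p = 0.0791) and ranked 24th by size and 13th by p. It passed by DESeq2 (adjusted p = 2.18e-06), after the GC correction (limma adjusted p = 0.00403), among genes under the stricter filter (limma adjusted p = 0.0464) and without normoxia replicate 3 (limma adjusted p = 0.0120), but not by edgeR (adjusted p = 0.0772). Over the alternatives its adjusted p from these tools ran from 2.18e-06 to 0.530.

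The longest transcripts of BNIP3L and FAM162A have a GC content of 38.9% and 40.2%, near that of FUNDC1 (40.7%), against 51.4% for BNIP3. BNIP3L and FAM162A were highest, within normoxia, in replicate 3, whose levels fell with GC content, as was BNIP3 by a smaller margin. The SE of the log2 difference of FAM162A was 0.18 after the GC correction and that of BNIP3L 0.26, against 0.29 and 0.32 before it, while the log2 differences themselves were 2.08 and 1.85. For BNIP3 the SE was higher after the correction, at 0.25 against 0.21, with a log2 change of 3.41. The SE was lower after it for FUNDC1, BCL2L13, MUL1 and PINK1 as well. PINK1 went from 0.27 to 0.18 with a GC content of 52.5%. For FKBP8 (0.20 to 0.29) and PHB2 (0.19 to 0.25) it was higher. The part of GC content in these SEs was not tested.

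**Figure D2:**
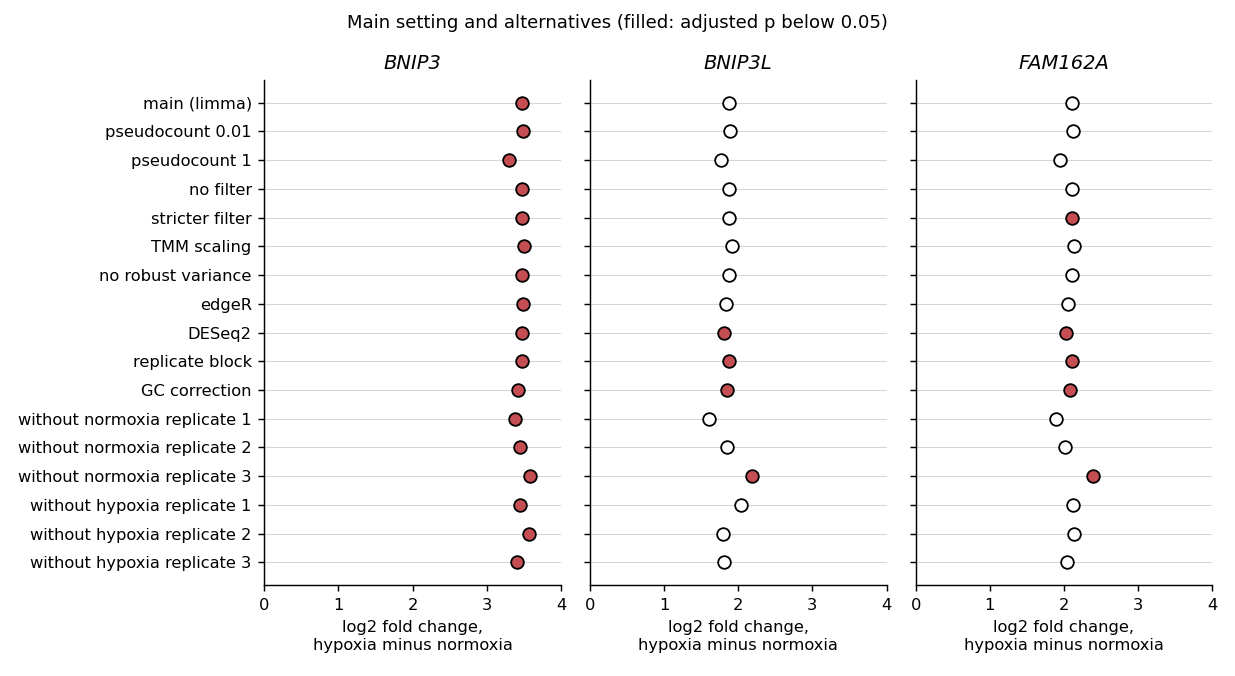
Log2 fold change of BNIP3, BNIP3L and FAM162A (horizontal axis, hypoxia minus normoxia) under the main setting and the 16 alternatives (rows), filled where the adjusted p was below 0.05. BNIP3 is filled in every row, BNIP3L in 4 alternatives and FAM162A in 5, with log2 values between 1.61 and 2.40 for the latter pair.

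FUNDC1, the outer membrane receptor whose LC3 binding is switched by phosphorylation, was the scarcest member by reads and the most variable. It lies on the minus strand of chromosome X (44523639 to 44543001). FUNDC1 had 95.3, 149 and 302 scaled reads in normoxia and 207, 62.2 and 198 in hypoxia. Its highest and lowest libraries differed 3.17-fold within normoxia and 3.33-fold within hypoxia, more than the group means differed. The log2 difference was -0.24 (95% interval -1.54 to 1.05, limma adjusted p = 1.00). Its sign turned without normoxia replicate 3 (0.20) and without hypoxia replicate 2 (0.31). The GC content of FUNDC1 is 40.7%, and it too was highest in normoxia replicate 3. The interval includes both a 2-fold rise and a 2-fold fall, so a change of that size is not excluded either way by the main fit.

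BCL2L13 and FKBP8 encode the other outer membrane receptors, the first a BCL2-like protein that can replace yeast Atg32 and the second an immunophilin that binds LC3A. BCL2L13 (chromosome 22, plus strand, 17628855 to 17730855) had 706, 812 and 563 scaled reads in normoxia and 600.5, 819 and 898 in hypoxia. FKBP8 (chromosome 19, minus strand, 18531751 to 18544077) was abundant, with 10160.1, 8817 and 11541 in normoxia, against 10139, 10507 and 8318 in hypoxia. The groups overlapped for both. Log2 differences were 0.15 (95% interval -0.47 to 0.76) for BCL2L13 and -0.07 (95% interval -0.54 to 0.39) for FKBP8, each with a limma adjusted p of 1.00. The sign of FKBP8 turned without normoxia replicate 3 (0.02) and without hypoxia replicate 3 (0.03).

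PHB2, a prohibitin of the inner membrane that binds LC3 once the outer membrane is ruptured, had 7881, 6750.0 and 8124 scaled reads in normoxia and 9607, 7832 and 7630 in hypoxia. PHB2 is on the minus strand of chromosome 12 (6965327 to 6970825). Its log2 difference was 0.14 (95% interval -0.31 to 0.59, limma adjusted p = 1.00). Its groups overlapped, with hypoxia replicate 1 above the rest. Exons of PHB2 share 239 bp (9.56% of their length) with SCARNA12 on the same strand, a gene that the deposited table does not hold. How reads of that stretch were assigned is not known.

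PINK1 and MUL1 act through ubiquitin. PINK1 encodes the kinase that builds up on depolarised mitochondria and phosphorylates ubiquitin, and MUL1 encodes an outer membrane ubiquitin ligase that acts on mitofusin 2. PINK1 (chromosome 1, plus strand, 20633455 to 20651511) had 514 to 749.9 scaled reads in normoxia (646 ± 120.3, SD, n = 3) and 561 to 868 in hypoxia (692 ± 158). The groups overlapped, and the log2 difference was 0.09 (95% interval -0.52 to 0.71, limma adjusted p = 1.00). Without normoxia replicate 3 it was -0.06 and without hypoxia replicate 2 it was -0.08. PINK1 exons share 1907 bp (39.4% of their length) with PINK1-AS on the opposite strand, which had 59.2 to 148 scaled reads per library. With the strand setting not given, reads in that stretch cannot be assigned with certainty. MUL1 (chromosome 1, minus strand, 20499448 to 20508161) had 1346, 1108 and 1024 in the normoxia libraries, and 1034, 1070.1 and 994 under hypoxia, and its log2 difference was -0.16 (95% interval -0.62 to 0.30, limma adjusted p = 1.00). MUL1 values overlapped between the groups and were within 1.08-fold of each other in hypoxia, the tightest group of any member.

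**Figure D3:**
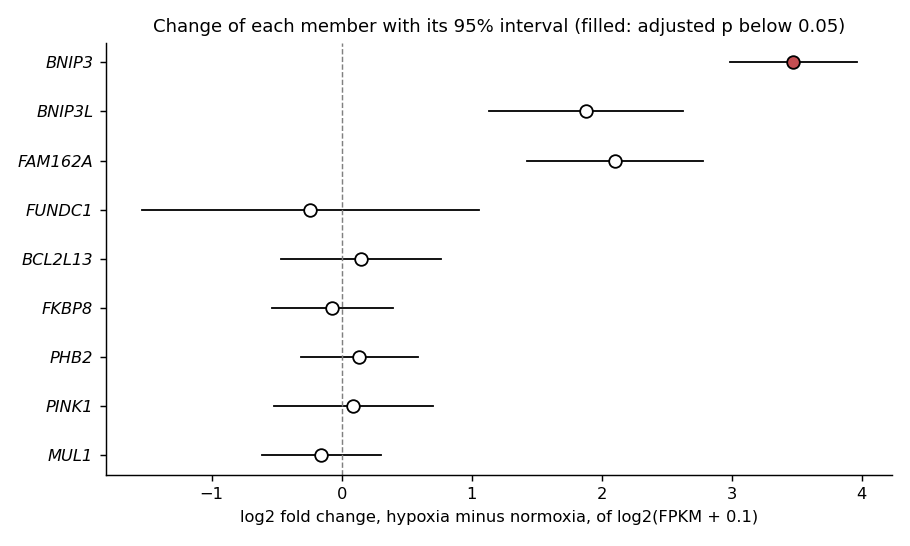
Log2 fold change of each of the 9 genes, hypoxia minus normoxia, on log2(FPKM + 0.1), with the 95% interval from limma, filled where the adjusted p was below 0.05. The intervals of BNIP3, BNIP3L and FAM162A lie above 0, those of the other 6 genes include 0, and that of FUNDC1 is the widest, from -1.54 to 1.05.

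Per unit of exon length, the order of the members differed between the groups. In normoxia FKBP8 (196 ± 26.3, SD, n = 3) and PHB2 (169.9 ± 16.4) on the FPKM scale lay far above MUL1 (26.6 ± 3.84), and the other 6 genes lay between 5.07 (BCL2L13) and 8.46 (BNIP3L), each overlapping its neighbour in the order. In hypoxia PHB2 (187 ± 24.4) and FKBP8 (186 ± 22.6) overlapped each other and stood above BNIP3 (70.4 ± 7.59), which came next and overlapped neither FKBP8 nor BNIP3L. BNIP3L (30.0 ± 5.44), FAM162A (25.4 ± 1.85) and MUL1 (23.7 ± 0.871) followed, each overlapping the next. PINK1 (8.01 ± 1.83), FUNDC1 (6.23 ± 3.25) and BCL2L13 (5.65 ± 1.13) were lowest in hypoxia and overlapped in the same way. The length of the longest principal transcript was also used in place of summed exon length, a choice made after seeing the data. With it the first 3 in each group were the same genes in the same order, but the lower order differed. In normoxia BCL2L13 (13.0) stood above BNIP3 (11.7) on average, BNIP3 above BNIP3L (10.1), and FAM162A (7.58) was last, each overlapping its neighbour in the order. In hypoxia FUNDC1 (7.29) was lowest and did not overlap BCL2L13 (14.5), and FAM162A did not overlap MUL1.

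The 5 outer membrane receptors were also summed. Their summed level on the FPKM scale was 216, 196 and 258 at 20% oxygen, against 305, 306 and 284 under hypoxia. FKBP8 made up 88.0 ± 2.47% of this sum in normoxia and 62.2 ± 5.09% in hypoxia (SD, n = 3). BNIP3 made up 2.53%, 3.08% and 2.82% in normoxia, and its share in hypoxia was 23.9%, 20.2% and 26.8%. BNIP3L made up 2.54%, 3.90% and 4.75% and then 7.79%, 10.9% and 11.6%. With principal transcript lengths the mean shares of BNIP3 were 3.32% and 27.3% and those of BNIP3L 2.83% and 7.48%. Apart from FKBP8, the sum of the other 4 receptors was 19.9, 25.5 and 35.8 in the normoxia libraries, against 109.5, 104 and 124 under hypoxia. These shares rest on the same values as the changes above and are given without a test.

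The balance within the pair of relatives differed between the groups. The ratio of BNIP3 to BNIP3L per exon length was 0.998, 0.789 and 0.595 in normoxia, against 3.07, 1.85 and 2.32 in hypoxia, with no overlap. With principal transcript lengths the ratios were 1.56, 1.23 and 0.928 and then 4.79, 2.88 and 3.62, so which of the pair is more abundant in normoxia depends on the length used. The relative shift between groups is the same by construction, since a change of length multiplies the ratio of every library by the same factor. BNIP3L and FAM162A kept closer to each other, with a ratio of 1.27, 1.48 and 1.39 in normoxia and 0.969, 1.39 and 1.20 in hypoxia, which overlapped.

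**Figure D4:**
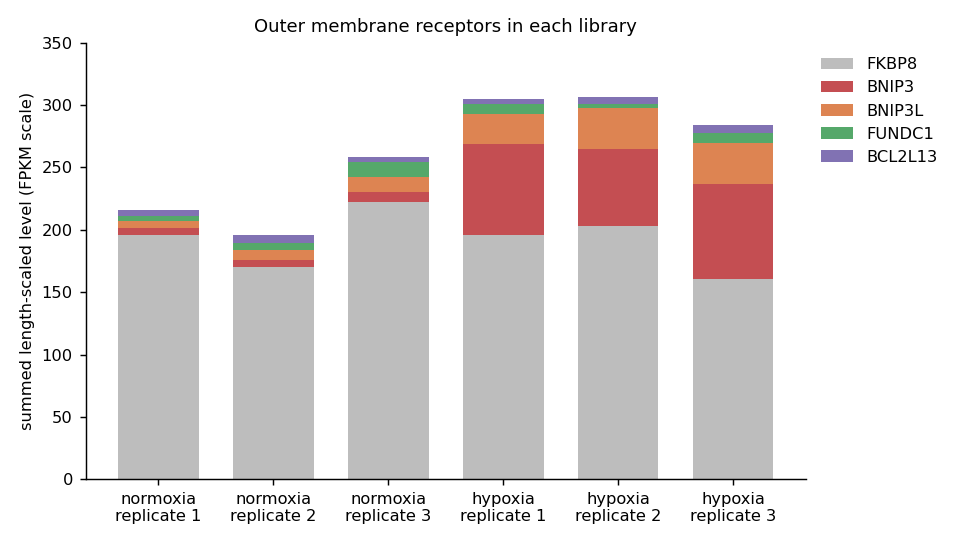
Summed length-scaled level (FPKM scale, vertical axis from 0) of the 5 outer membrane receptor genes in each of the 6 libraries, stacked by gene. FKBP8 forms most of every bar, and the BNIP3 and BNIP3L segments are larger in all 3 hypoxia libraries than in any normoxia library.

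Around the members, other genes of the pathway did not pass limma or edgeR. Over the 9 lists that follow, each of these tools called 0 genes, beside 0.0977% of all genes tested. DESeq2 called HIF1A, beside 0.489% of genes with an adjusted p. The genes at an unadjusted limma p below 0.05 were VDAC1 and HIF1A, beside 2.69% of genes tested. With so few genes called in all, a count of 0 in a short list does not show that its genes were unchanged. Of 4 tested relatives and namesakes, 0 passed limma, and FUNDC2, the relative of FUNDC1, had a log2 difference of 0.29 (95% interval -0.30 to 0.88) and BNIP1 one of 0.25 (95% interval -0.43 to 0.93). FAM162B was not analysed here. Of 7 tested genes for other proteins described as mitophagy receptors, 0 passed, 3 were positive and the median was -0.02, with NIPSNAP2 at 0.43 and NLRX1 at -0.24. Among 12 enzymes and partners that act on the receptors, 0 passed and the median was 0.09. PGAM5, the phosphatase that acts on FUNDC1, stood at 1223 ± 196 and 911 ± 221 scaled reads (log2 difference -0.44, 95% interval -1.05 to 0.17). FBXL4, the ubiquitin ligase subunit that limits BNIP3 and BNIP3L protein, stood at 165 ± 15.7 and 210.1 ± 58.6 (log2 difference 0.29, 95% interval -0.43 to 1.02).

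Genes of the ubiquitin pathway and of the ATG8 system were not called either. Of 14 tested genes of the PINK1 and ubiquitin pathway outside the members, 0 passed limma and 9 were positive, with a median of 0.16. VDAC1, an outer membrane channel that is ubiquitinated in this pathway, had 4443, 4501 and 3946 scaled reads in normoxia and 6076, 5762 and 5556 in hypoxia. Its groups did not overlap, and its log2 difference of 0.43 (95% interval 0.02 to 0.85) had a limma adjusted p of 1.00. TOMM7, a translocase subunit that helps to hold PINK1, had a log2 difference of 0.42 (95% interval -0.27 to 1.11). Among 16 tested genes of ATG8 proteins and their conjugation, 0 passed and the median was 0.06. MAP1LC3B, the main LC3 gene, stood at 2156 ± 158 and 2155 ± 209 (log2 difference -0.00, 95% interval -0.45 to 0.45). The largest differences were MAP1LC3B2 at 0.61 and ATG4C at -0.40, the second with a SD in normoxia (104) above the difference of its group means (136 and 89.1).

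The same held for genes of mitochondrial shape, cell death and abundant mitochondrial proteins. Of 12 fission and fusion genes, 0 passed, 4 were positive and the median was -0.05, with MIEF1 at -0.33 and OPA1 at -0.29. Of 11 tested BCL2 family genes outside the members, 0 passed and the median was 0.12. BMF, a BH3-only gene, stood at 211 ± 90.1 and 125 ± 64.2 (log2 difference -0.72, 95% interval -1.81 to 0.37), and BCL2L2, a pro-survival gene, at 363 ± 154 and 546 ± 63.3 (log2 difference 0.68, 95% interval -0.17 to 1.53). BCL2 itself, the family's founding member, was below the filter on low values, at 3.38 ± 3.20 and 4.93 ± 3.14 scaled reads. Of 15 nuclear genes of abundant mitochondrial proteins, 0 passed and 11 were positive, with a median of 0.11 and COX4I1 at 0.29. VDAC1 belongs to this list as well.

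Of 8 tested transcription factors described as acting on the members, 0 passed limma and 6 were negative, with a median of -0.21. HIF1A had 1179, 2945 and 4015 scaled reads in normoxia and 664, 590.0 and 1079 in hypoxia, so its groups did not overlap. Its log2 difference of -1.67 (95% interval -2.73 to -0.60) had an adjusted p of 0.998 by limma and 0.0276 by DESeq2. EPAS1 stood at 4663 ± 1624 and 4872 ± 2052 (log2 difference 0.02, 95% interval -0.95 to 0.99), and its sign turned after the GC correction (-0.03) and without normoxia replicate 3 (-0.30), hypoxia replicate 2 (-0.20) or hypoxia replicate 3 (-0.18). FOXO1 had a log2 difference of -0.67 (95% interval -1.58 to 0.24).

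**Figure D5:**
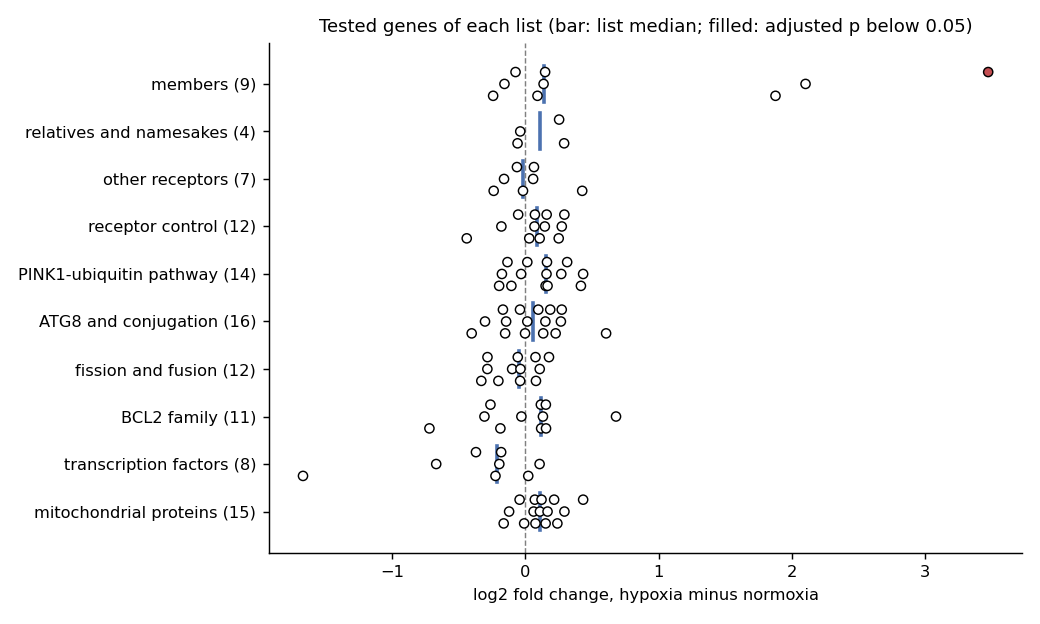
Log2 fold change, hypoxia minus normoxia (horizontal axis), of every tested gene of the 9 members and of 9 lists of related genes (rows, number of tested genes in brackets), with a bar at each list's median, filled where the limma adjusted p was below 0.05. BNIP3 is the only filled point, BNIP3L and FAM162A lie near 2, and the next largest positive value, that of BCL2L2, is 0.68.

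The genes whose log2 level followed BNIP3 most closely over the 6 libraries were LDHA (Pearson r = 0.997), SPATS2 (0.991), LINC01615 (0.989), RASSF4 (0.987) and KDM3A (0.984). These values cover 2 groups of 3 libraries, so a gene with a step between the groups scores high, and they are given as a description. LDHA, the lactate dehydrogenase subunit, rose from 13558 ± 1584 to 43896 ± 3628 scaled reads (log2 change 1.70, limma adjusted p = 0.0236), and RASSF4, a Ras association domain family gene, from 95.4 ± 6.63 to 1113 ± 254 (log2 change 3.31, limma adjusted p = 0.00853). With 1 library left out at a time, LDHA passed only without normoxia replicate 3 (limma adjusted p up to 0.275 otherwise), and RASSF4 passed except without hypoxia replicate 2 (limma adjusted p = 0.0514) or hypoxia replicate 3 (limma adjusted p = 0.127). SPATS2 stood at 1234 ± 70.3 and 1920.3 ± 112 (log2 difference 0.63, limma adjusted p = 1.00), LINC01615 at 43.7 ± 1.29 and 136 ± 24.2 (1.58, limma adjusted p = 0.107), and the histone demethylase gene KDM3A at 469.8 ± 109 and 1747 ± 344 (1.85, limma adjusted p = 0.107). DESeq2 called both LINC01615 (adjusted p = 0.000815) and KDM3A (adjusted p = 8.03e-07), and KDM3A also passed limma after the GC correction (adjusted p = 0.0117) and without normoxia replicate 3 (adjusted p = 0.0430). FAM162A was 9th in this order (r = 0.977) and BNIP3L 33rd (0.947). The next member was PHB2, at rank 1334 (0.474), and MUL1 was last of the members (-0.605).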

How the data were processed

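Per the submitters' processing notes, CASAVA, HISAT2 2.0.5 and featureCounts 1.5.0-p3 were used. The notes name the mouse build mm9, but every identifier in the table is a human Ensembl gene. The sources used here do not give the human build, the annotation release or the strand setting. The deposited signal is named for FPKM, but 100% of values were whole multiples of 1 step per library (tolerance 0.05 of a step), so the authors' values are reads per gene divided by a size factor (0.944 to 1.06), and whole reads were recovered. Because FPKM had been assumed, values were divided by summed exon length (GENCODE 29) and mean library total. Genes with at least 1 on this scale in at least 3 libraries were tested on log2(FPKM + 0.1) with limma 3.58.1 (R 4.3.3), with a mean-variance trend, robust variances, two-sided tests and Benjamini-Hochberg adjustment. This scale understates changes of low genes. edgeR 4.0.16 and DESeq2 1.42.0 were run on recovered reads of the same genes. Other alternatives were pseudocounts of 0.01 and 1, no filter, a stricter filter, TMM scaling, no robust variances, a replicate block, removal of a smooth trend of each library with gene GC content, and leaving out each library.

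The members and gene lists were chosen with earlier results of these data known. The named genes were all members, any list gene past the test, the 2 tested genes of each list with the largest absolute log2 difference, the 5 genes most like BNIP3, HIF1A and EPAS1. MAP1LC3B, BCL2, CLDN5, TEK, EPCAM, COL1A1 and CD14 were added after their values were seen. List genes are described by counts and medians without a test of the list.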

Additional observations from a re-analysis of the deposited data

How the results depend on the processing

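The direction of BNIP3, BNIP3L, FAM162A, BCL2L13, PHB2 and MUL1 was the same in all 16 alternatives. The number of members called was 1 with limma, 2 under the stricter filter (at least 5 on the FPKM scale) and 3 by DESeq2, after the GC correction and with a replicate block. It ran from 1 to 3 over the fits that leave out 1 library, and was 3 without normoxia replicate 3 only. The number of genes called over the table was 10 with limma (0.0977% of genes tested), 11 under the stricter filter and 4 without a filter. It was 22 after the GC correction, 50 by DESeq2 (0.489% of genes with an adjusted p) and 19 with a replicate block. With a library left out it ran from 1 (without hypoxia replicate 3) to 20 (without normoxia replicate 3). With principal transcript lengths, chosen after seeing the data, the mean BNIP3 share of the receptor sum was 3.32% and 27.3% in normoxia and hypoxia and that of BNIP3L 7.48% in hypoxia. Whether same-numbered libraries were paired is not stated. Deviations from the group mean had correlations of -0.40, 0.24 and 0.22 between same-numbered libraries, and 0.609 between normoxia replicate 1 and hypoxia replicate 2. These values cannot settle the design, so the replicate block is given as an alternative only. With the block, BNIP3L had a limma adjusted p of 0.0301 and FAM162A one of 0.0155.

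With a library left out, log2 differences changed sign for FUNDC1 (-0.62 to 0.312), FKBP8 (-0.173 to 0.0296), PINK1 (-0.0826 to 0.228), EPAS1 (-0.302 to 0.445), ATG4C (-0.684 to 0.154), OPA1 (-0.675 to 0.282), KRT7 (-0.338 to 0.146), KRT8 (-0.347 to 0.154), FAP (-0.0579 to 0.844), ACTA2 (-0.0228 to 0.310) and LYZ (-0.597 to 0.607). The cause was not tested. The sign of EPAS1 turned after the GC correction (-0.033). LYZ turned with a pseudocount of 1 (-0.014), by edgeR (-0.10) and by DESeq2 (-0.11). FUNDC1 had 60 to 321 reads per library, and its SE was 0.56, or 0.36 after the GC correction.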
